A study of Mus musculus with 15 samples.

Results

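The genes described here encode the machinery of regulated exocytosis, by which an islet cell releases hormone from its granules. The set is a list of 44 mouse genes grouped by role: the SNARE proteins, the priming factors and SNARE regulators, the synaptotagmins with Doc2b, the Rab effectors that tether granules, and the vesicle proteins. Each gene was read from 1 transcript cluster of the array, the one with the highest mean signal among clusters annotated to that gene alone, and 43 of the 44 had such a cluster, out of 19938 genes in all. Vamp2, the vesicle SNARE of insulin granules, had only a cluster annotated to a pair of genes and is not analysed here. All 43 were tested, with no filter on low signals.

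RNA from mouse islet cells was measured on 15 arrays in 3 groups of 5, on a mixed background of B6 and BALB/C. Pdx1-deficient cells carry the genotype label Pdx1-deficient (PKO) and were taken 5 days after tamoxifen; the sources used here do not give their driver, reporter or age. Alpha cells are labelled RIP-CreER; Pdx1fl/+, RosaYFP, so this group carries a floxed Pdx1 allele, and beta cells are labelled glucagon-Cre; RosaYFP. Both of these control groups were sorted by YFP from mice aged 2 months. The drivers in the labels are the reverse of the cells in which the insulin promoter and the glucagon promoter are active. Nothing says that the arrays of 1 group are separate animals, so the p-values rest on the spread of these arrays, which could be technical. The groups were taken from the sample titles.

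In regulated exocytosis a granule is tethered and docked at the plasma membrane by Rab GTPases and their effectors, primed by Unc13, Rim and CAPS proteins, and fused by the zippering of a vesicle SNARE with syntaxin and a Snap25-type SNARE. Calcium triggers the last step through synaptotagmins, and the ATPase Nsf with its adaptor alpha-SNAP takes the spent SNARE complexes apart. Alpha and beta cells share much of this machinery with neurons, and several members exist as families whose use differs between cell types.

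Signals are log2 values per transcript cluster, and a difference of 1 is a change of 2-fold if the base is 2, which the range of the values shows but no header states. Probe sets differ in brightness, so levels are compared between groups for 1 gene and never between genes. A gene was called higher or lower where the limma p, after Benjamini-Hochberg adjustment across all 19938 genes, was under 0.05. In bulk RNA of this kind fewer cells with a transcript and less transcript per cell cannot be told apart.

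The target gene and the cell markers set the frame. Pdx1 read 9.12 in the array labelled Pdx1-deficient replicate 1, inside the beta range of 8.85 to 9.33, and 6.53 to 7.83 in replicates 2 to 5. Alpha arrays read 7.27 to 8.21. Against beta cells Pdx1 differed by -1.39 in Pdx1-deficient cells and did not pass (limma adjusted p = 0.0575). In alpha cells it differed by -1.28 and passed (limma adjusted p = 0.0473). Whether the cluster lies in the deleted part of the gene is not known. The 9 measured beta-cell markers averaged 10.36 in the array labelled Pdx1-deficient replicate 1, 8.93 to 9.47 in the other Pdx1-deficient arrays, 8.94 to 9.51 in alpha arrays and 10.14 to 10.43 in beta arrays. The 8 measured alpha-cell markers averaged 9.08 in the array labelled Pdx1-deficient replicate 1, the highest of its group, and 8.77 to 8.96 in the other Pdx1-deficient arrays. They averaged 8.88 in the array labelled alpha replicate 2, 9.76 to 9.98 in the other alpha arrays and 8.13 to 8.52 in beta arrays. Against beta cells 1 of 9 beta-cell markers was called lower and 1 of 8 alpha-cell markers higher in Pdx1-deficient cells, where 1.09% of all genes passed. In alpha cells 5 of 9 were called lower and 5 of 8 higher, where 4.04% passed. The clusters of Gcg and Ins2 read between 11.77 and 12.87 in every array of all 3 groups, and whether signals this bright can still follow the level was not tested. Gcg averaged 12.52 in Pdx1-deficient, 12.74 in alpha and 12.35 in beta arrays, and Ins2 12.03, 12.00 and 11.90 in the same order. Acinar markers averaged 11.96 in alpha replicate 5 and 5.87 to 7.02 in the other 14 arrays.

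Promoter windows from RefSeq (GRCm38.p6, 300 bases around each gene's start) are printed for the members past the threshold that have an entry, 5 of 7, because these are the genes on which the results turn. Capitals mark the letters TAAT on either strand (ATTA as read here), the core that homeodomain factors such as Pdx1 recognise.
Vamp8 (chr6:72390618-72390917, minus strand): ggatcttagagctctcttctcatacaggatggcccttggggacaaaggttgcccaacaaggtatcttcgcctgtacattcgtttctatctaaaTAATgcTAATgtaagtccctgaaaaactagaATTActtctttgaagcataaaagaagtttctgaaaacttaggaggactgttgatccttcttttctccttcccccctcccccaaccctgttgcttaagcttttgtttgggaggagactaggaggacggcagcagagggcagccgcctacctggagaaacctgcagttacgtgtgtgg
Cadps2 (chr6:23839372-23839671, minus strand): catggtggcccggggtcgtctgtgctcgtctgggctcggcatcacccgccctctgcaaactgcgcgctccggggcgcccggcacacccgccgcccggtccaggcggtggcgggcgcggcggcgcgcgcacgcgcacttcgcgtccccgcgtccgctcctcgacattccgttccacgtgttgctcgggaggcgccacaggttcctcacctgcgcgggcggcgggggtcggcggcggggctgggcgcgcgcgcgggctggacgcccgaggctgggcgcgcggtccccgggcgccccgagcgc
Syt16 (chr12:73997527-73997826, plus strand): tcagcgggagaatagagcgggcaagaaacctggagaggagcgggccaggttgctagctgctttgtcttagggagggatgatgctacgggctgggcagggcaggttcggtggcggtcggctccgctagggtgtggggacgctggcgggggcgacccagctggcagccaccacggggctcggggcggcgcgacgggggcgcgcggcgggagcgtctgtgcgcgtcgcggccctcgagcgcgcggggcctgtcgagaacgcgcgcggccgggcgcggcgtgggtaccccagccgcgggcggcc
Syp (chrX:7638330-7638629, plus strand): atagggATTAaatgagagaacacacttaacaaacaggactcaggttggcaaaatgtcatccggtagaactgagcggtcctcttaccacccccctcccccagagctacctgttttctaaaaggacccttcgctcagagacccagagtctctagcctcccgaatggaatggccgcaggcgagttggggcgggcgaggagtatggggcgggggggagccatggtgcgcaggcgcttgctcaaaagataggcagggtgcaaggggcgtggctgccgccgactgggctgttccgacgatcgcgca
Sv2a (chr3:96180977-96181276, plus strand): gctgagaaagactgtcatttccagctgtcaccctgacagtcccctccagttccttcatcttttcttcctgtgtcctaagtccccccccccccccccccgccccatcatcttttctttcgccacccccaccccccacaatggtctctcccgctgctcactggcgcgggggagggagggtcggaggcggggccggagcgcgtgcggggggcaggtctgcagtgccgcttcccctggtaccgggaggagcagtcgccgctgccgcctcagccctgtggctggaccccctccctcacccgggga

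TAAT occurred 3 times in the Vamp8 window and 1 time in the Syp window, and in none of the Cadps2, Syt16 and Sv2a windows, where 58% of all 32851 promoter windows hold at least 1 match. The longer palindrome TAATTA, which holds TAAT on both strands, was in none of the 5, against 5.29% of all windows, and the cyclic AMP response element TGACGTCA in none, against 1.79%. The GC box GGGCGG, searched on both strands, occurred 3 times for Cadps2, 2 times for Syt16 and for Syp, 1 time for Sv2a and not for Vamp8, against 35.7% of windows with a match. These are matches of letters and not bound sites.

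Against beta cells, 3 of the 43 genes passed in Pdx1-deficient cells. The groups are as labelled, and replicate 1 of the Pdx1-deficient group, which read like beta cells for Pdx1, is included. Vamp8, a vesicle SNARE, and Syp, the vesicle membrane protein synaptophysin, were lower, and Syt16, an atypical synaptotagmin, was higher. Of all genes tested 1.09% passed in this comparison, 0.160% higher and 0.928% lower. The members' median difference was -0.05 and that of all genes 0.06. Signals of the 2 groups did not overlap for 1 member that was higher and 5 that were lower (Syt16, and Cadps2, Nsf, Syt13, Syp and Sv2a), against 5.96% of all genes (2.77% higher and 3.18% lower). At an unadjusted p under 0.05 there were 4 members higher and 10 lower, against 21.8% of all genes (11.0% higher and 10.8% lower). With array medians subtracted 1 member was called higher and 5 lower, where 3.08% of all genes passed, and with quantile normalization 0 and 0, where 0.145% passed. No member was called without any 1 of Pdx1-deficient replicates 2, 4 and 5 or beta replicates 1, 3, 4 and 5, fits in which 0% to 0.346% of all genes passed. The count was 2 without Pdx1-deficient replicate 3, alpha replicate 4, alpha replicate 5 or beta replicate 2 (0.863% to 1.44% of all genes), 5 without alpha replicate 2 (1.34%), and 6 without the array labelled Pdx1-deficient replicate 1, where 2.75% of all genes passed. Without that array and the array labelled alpha replicate 2 the count was 7, 2 higher (Syt16 and Cadps) and 5 lower (Vamp8, Syt13, Sytl4, Syp and Sv2a), where 3.14% of all genes passed.

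Alpha cells differed from beta cells in 6 of the 43 genes. The synaptotagmin genes Syt16 and Syt13, the priming gene Cadps2, the vesicle protein genes Syp and Sv2a and the granule tether gene Sytl2 passed, with Syt16 and Sytl2 higher and the other 4 lower in alpha cells. Of all genes tested 4.04% passed, 0.893% higher and 3.15% lower. The members' median difference was -0.08, and that of all genes 0.04. Signals did not overlap for 3 members that were higher in alpha cells (Syt16, Sytl2 and Sv2b) and 5 that were lower (Cadps2, Syt13, Sytl4, Syp and Sv2a), against 6.34% of all genes (2.29% higher and 4.05% lower). At an unadjusted p under 0.05 there were 5 members higher and 9 lower, against 20.7% of all genes (8.75% higher and 12.0% lower). With array medians subtracted 2 members were called higher and 7 lower, where 5.93% of all genes passed, and with quantile normalization 0 and 4, where 2.9% passed. Cadps2, Syt13, Syp and Sv2a passed in each of the 24 alternatives run, the 15 that leave out 1 array among them. With Pdx1-deficient replicate 1 and alpha replicate 2 both left out the count was 9, where 7.15% of all genes passed, and without Pdx1-deficient replicate 1 alone it was 8, where 4.06% passed.

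Directly compared, Pdx1-deficient and alpha cells differed past the threshold in 0 of the 43 genes by limma, and in 0 of all genes tested (0%). At an unadjusted p under 0.05 there were 4 members higher and 6 lower in Pdx1-deficient cells, where 3.10% of all genes were higher and 2.90% lower. Signals overlapped for all 43 members, where 0.637% of all genes did not overlap (0.356% higher and 0.281% lower). The count of members stayed at 0 without the array labelled Pdx1-deficient replicate 1 (0.00502% of all genes) and without it and alpha replicate 2 (0.888%), and it was 1 (Sytl2, lower) without alpha replicate 2 alone (0.727%). Both comparisons with beta cells use the same 5 beta arrays, so values of the members are given side by side and a shared direction is no separate evidence.

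**Figure D1:**
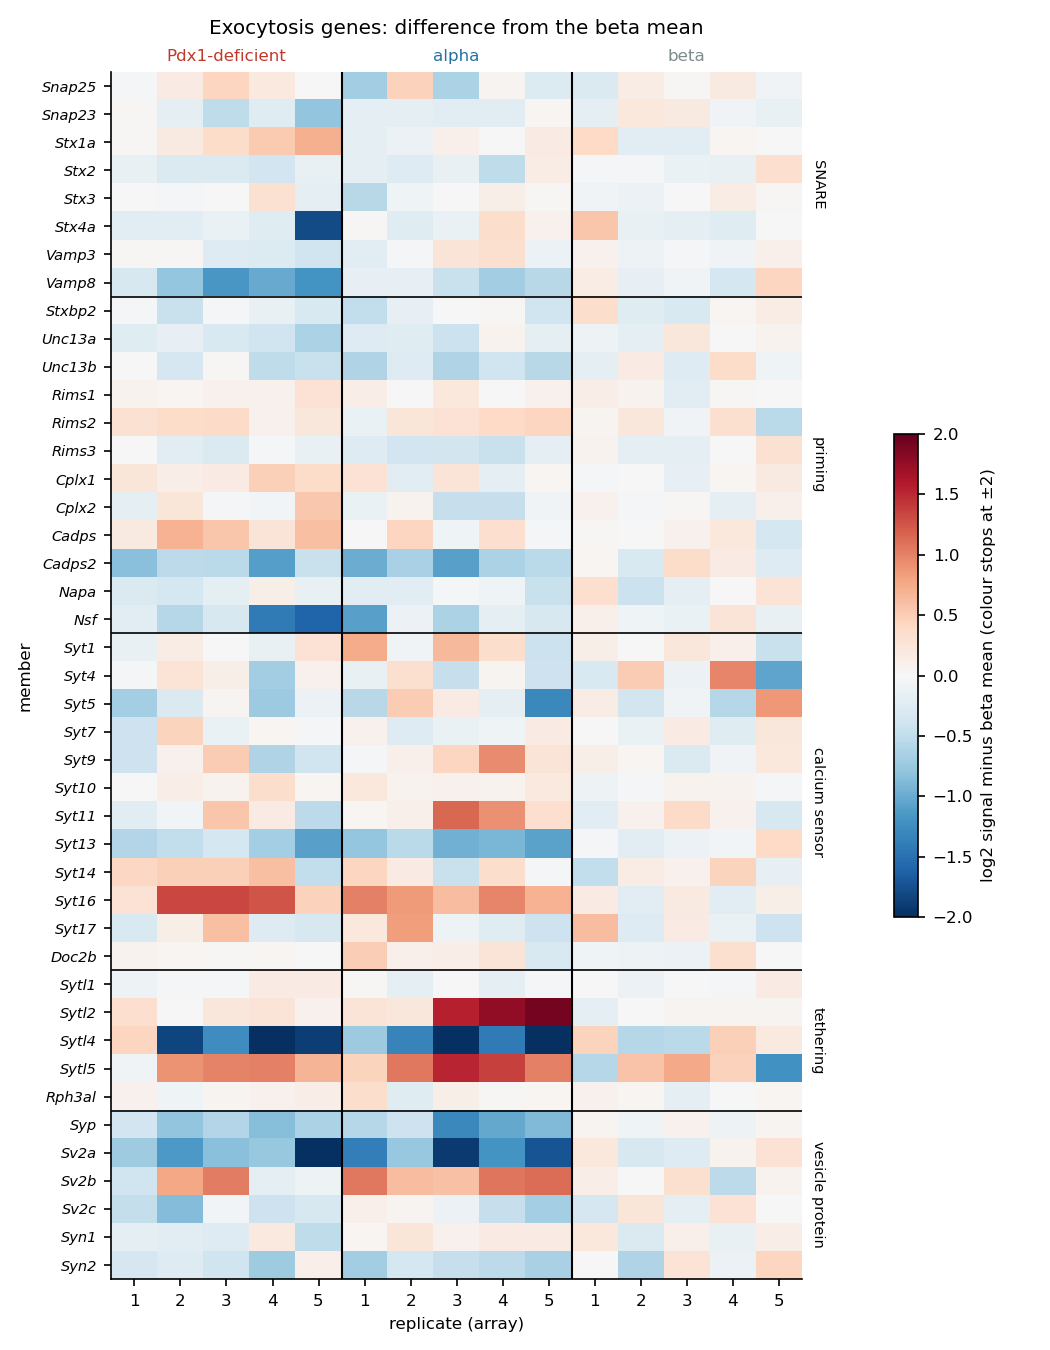
Log2 signal of each of the 43 exocytosis genes (rows, by role) in each array (columns, by group and replicate) minus that gene's mean over the 5 beta arrays, with colour from blue (lower) to red (higher) and an end of the colour scale at 2 in either direction. Sytl4, Sv2a and Syp form blue rows and Syt16 a red row in most Pdx1-deficient and alpha arrays, while Sytl2 is red in alpha replicates 3 to 5.

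**Figure D2:**
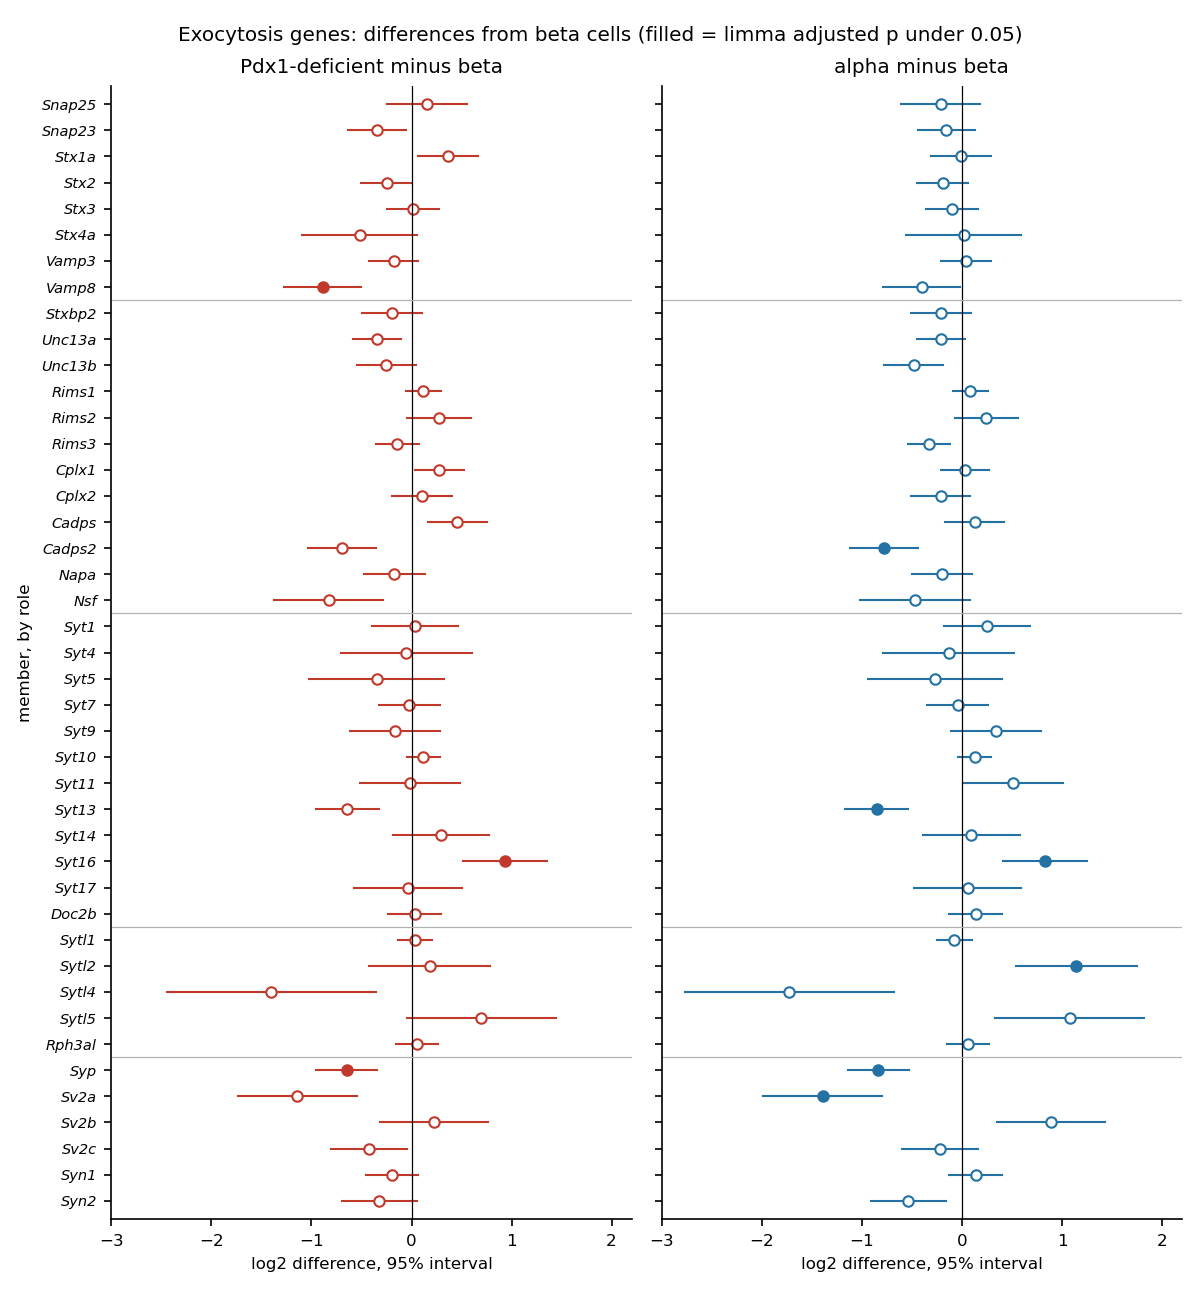
Log2 differences from beta cells with limma's 95% intervals for the 43 genes, Pdx1-deficient minus beta on the left and alpha minus beta on the right, with filled points for genes past the threshold. Filled points number 3 on the left and 6 on the right, and Syt16 and Syp are filled on both sides.

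Among the SNARE genes, 1 of 8 fell in Pdx1-deficient cells and 0 of 8 passed in alpha cells, with median differences from beta cells of -0.21 and -0.13 (-0.31 and -0.21 with array medians subtracted, -0.11 and -0.037 with quantile normalization). Vamp8 (also called endobrevin) is a vesicle SNARE of endosomes and secretory granules, and its cluster is 1 of those on which the comparison turns. It read 10.56, 10.09, 9.71, 9.86 and 9.68 in Pdx1-deficient replicates 1 to 5. Alpha replicates 1 to 5 read 10.71, 10.70, 10.43, 10.17 and 10.32. Beta replicates 1 to 5 read 11.02, 10.71, 10.79, 10.52 and 11.29. Replicates 2 to 5 of the Pdx1-deficient group lay below every beta array, while replicate 1 lay just inside the beta range, and the alpha signals fell between the groups and overlapped both. Vamp8 fell by 0.89 on the log2 scale in Pdx1-deficient cells (SE 0.18, 1.85-fold, limma adjusted p = 0.0339), with group means of 9.98 ± 0.36 in Pdx1-deficient and 10.87 ± 0.30 in beta arrays (SD, n = 5 each). It passed in 13 of 24 alternatives (limma adjusted p 0.00709 to 0.0913), and the exact permutation p, two-sided over the 252 splits of 10 arrays, was 0.0159. In alpha cells the difference from beta cells was -0.40 (limma adjusted p = 0.219). Vamp8 serves zymogen granules in acinar cells, and the acinar marker list averaged 5.87 to 6.64 in Pdx1-deficient arrays and 5.87 to 6.76 in beta arrays. In this comparison 0 of its 7 genes passed. Their SEs were 0.76 to 1.01, because the shared spread includes alpha replicate 5 with a list mean of 11.96, so that count says little. The part of acinar cells in the Vamp8 result was not tested.

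The plasma-membrane SNAREs had no call. Stx1a, the syntaxin that pairs with Snap25 in insulin release, read 6.54, 6.70, 6.88, 7.04 and 7.23 in Pdx1-deficient replicates 1 to 5, 6.34, 6.40, 6.61, 6.52 and 6.68 in alpha arrays, and 6.92, 6.29, 6.31, 6.56 and 6.51 in beta arrays. The Pdx1-deficient and beta signals overlapped, and the difference of 0.36 (95% interval 0.06 to 0.66) did not pass (limma adjusted p = 0.166). Snap23, the widely expressed relative of Snap25, read 10.24, 10.03, 9.71, 9.98 and 9.43 in Pdx1-deficient arrays, 10.02, 10.04, 9.99, 10.01 and 10.26 in alpha arrays, and 10.05, 10.44, 10.40, 10.14 and 10.08 in beta arrays. Its difference in Pdx1-deficient against beta cells was -0.34 (95% interval -0.63 to -0.05, limma adjusted p = 0.169). Snap25 itself, the partner of Stx1a on the plasma membrane, averaged 10.33 ± 0.18 in Pdx1-deficient, 9.96 ± 0.48 in alpha and 10.18 ± 0.19 in beta arrays (SD, n = 5 each). Its interval against beta cells ran from -0.24 to 0.55 in Pdx1-deficient cells and from -0.61 to 0.18 in alpha cells.

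The remaining syntaxins and Vamp3 had no call either. Stx2 and Stx3, syntaxins of the plasma membrane, differed in Pdx1-deficient cells by -0.25 and 0.01 and in alpha cells by -0.19 and -0.10. Stx4a, a syntaxin of insulin-responsive and granule exocytosis, differed by -0.52 in Pdx1-deficient cells (limma adjusted p = 0.268), where replicate 5 read 7.64 and the other 4 arrays 9.18 to 9.29. Beta arrays read 9.19 to 9.98 for it. Vamp3 (cellubrevin), a close relative of Vamp2, differed by -0.18 in Pdx1-deficient and 0.04 in alpha cells.

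Among the 12 priming and SNARE-regulating genes none passed in Pdx1-deficient cells and 1 fell in alpha cells, with median differences of -0.16 and -0.21 (-0.26 and -0.29 with array medians subtracted, -0.065 and -0.12 with quantile normalization). Cadps2, 1 of the pair of CAPS proteins that prime dense-core vesicles, read 5.83, 6.13, 6.12, 5.55 and 6.21 in Pdx1-deficient replicates 1 to 5. Alpha arrays read 5.67, 6.01, 5.56, 6.02 and 6.11, and beta arrays 6.69, 6.35, 7.02, 6.82 and 6.40. All 10 arrays of the Pdx1-deficient and alpha groups lay below the lowest beta array. In alpha cells Cadps2 fell by 0.78 on the log2 scale (SE 0.16, 1.72-fold, limma adjusted p = 0.0165, 0.0106 to 0.0475 over the alternatives). In Pdx1-deficient cells the difference was -0.69 with a limma adjusted p of 0.0511, just above the threshold, it passed in 4 of 24 alternatives (0.0285 to 0.12).

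Its paralog Cadps lay on the other side of 0. Cadps read 9.20, 9.73, 9.57, 9.28 and 9.63 in Pdx1-deficient arrays, 9.01, 9.46, 8.93, 9.36 and 9.01 in alpha arrays, and 9.05, 9.04, 9.12, 9.24 and 8.68 in beta arrays. In the Pdx1-deficient group replicate 1 alone, at 9.20, was inside the beta range. The difference of 0.46 in Pdx1-deficient cells did not pass (SE 0.14, limma adjusted p = 0.101). Without that array and the array labelled alpha replicate 2 it was 0.53 and passed (limma adjusted p = 0.0494, 0.0494 to 0.22 over the alternatives). That was the only 1 of 24 alternatives in which Cadps passed. It passed in 0 of the 15 that leave out 1 array, that without Pdx1-deficient replicate 1 among them.

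Nsf, the ATPase that separates SNARE complexes after fusion, read 8.12, 7.78, 8.03, 6.94 and 6.76 in Pdx1-deficient replicates 1 to 5. Alpha arrays read 7.27, 8.24, 7.71, 8.16 and 8.03, and beta arrays 8.46, 8.26, 8.22, 8.61 and 8.21. Every Pdx1-deficient array was below every beta array, with replicates 4 and 5 far lower than replicates 1 to 3, and the SD was 0.63 in the Pdx1-deficient and 0.18 in the beta group. The difference of -0.83 did not pass (SE 0.26, limma adjusted p = 0.107; exact permutation p = 0.00794, the smallest that 5 against 5 arrays allow). Pdx1-deficient replicates 4 and 5 also had the highest 25th percentiles of signal over all clusters, 4.80 in each, where beta arrays had 4.55 to 4.66, and the part of this in the result was not tested. Napa, which encodes the Nsf adaptor alpha-SNAP, differed by -0.17 in Pdx1-deficient and -0.20 in alpha cells.

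The Unc13 and Rim genes, whose products open syntaxin and hold granules near calcium channels, showed differences under 0.5 on the log2 scale. Unc13b, singled out after its values were seen, averaged 7.33 ± 0.25 in Pdx1-deficient, 7.09 ± 0.15 in alpha and 7.58 ± 0.26 in beta arrays (SD, n = 5 each). The alpha difference of -0.48 did not pass (limma adjusted p = 0.0628). It passed with array medians subtracted and without alpha replicate 2. Without Pdx1-deficient replicate 1 and alpha replicate 2 it was -0.54 and passed (limma adjusted p = 0.0366). Unc13a differed by -0.35 in Pdx1-deficient and -0.21 in alpha cells, and Rims3 by -0.14 and -0.33. In alpha cells Unc13a passed as lower with the mean of a gene's clusters, and Rims3 with array medians subtracted. Rims1 and Rims2 differed by 0.12 and 0.27 in Pdx1-deficient cells and by 0.08 and 0.24 in alpha cells. The complexins, which bind assembled SNARE complexes, differed by 0.28 (Cplx1) and 0.10 (Cplx2) in Pdx1-deficient cells and by 0.03 and -0.21 in alpha cells. Stxbp2 (Munc18-2), a syntaxin chaperone, differed by -0.19 and -0.21.

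Of the 12 genes for synaptotagmins and Doc2b, 1 rose in Pdx1-deficient cells, and 1 rose and 1 fell in alpha cells, with median differences of -0.02 and 0.11 (-0.12 and 0.025 with array medians subtracted, -0.054 and 0.032 with quantile normalization). Syt16, a synaptotagmin that lacks the membrane anchor and the calcium-binding residues of the family, read 5.98, 7.02, 7.02, 6.94 and 6.15 in Pdx1-deficient replicates 1 to 5. Alpha arrays read 6.69, 6.54, 6.31, 6.67 and 6.38, and beta arrays 5.85, 5.46, 5.86, 5.45 and 5.80. All arrays of both groups lay above the highest beta array, but Pdx1-deficient replicates 1 and 5 exceeded it by little while replicates 2, 3 and 4 lay above every alpha array. Syt16 averaged 6.62 ± 0.51 in Pdx1-deficient and 5.69 ± 0.21 in beta arrays (SD, n = 5 each), a difference of 0.94 (SE 0.20, 1.91-fold, limma adjusted p = 0.0367) that passed in 11 of 24 alternatives (0.00793 to 0.0959). In alpha cells it averaged 6.52 ± 0.17, a difference from beta cells of 0.83 (SE 0.20, limma adjusted p = 0.0315), which passed in 13 of 24 alternatives (0.00747 to 0.0729). The Pdx1-deficient call was also lost without Pdx1-deficient replicate 3 (0.0543) or beta replicate 2 (0.0627), beside the 7 arrays named above. The alpha call was lost without any 1 of alpha replicates 1, 3, 4 and 5 or beta replicates 1, 2, 4 and 5.

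Syt13, another synaptotagmin without calcium-binding residues, read 9.29, 9.38, 9.53, 9.20 and 8.79 in Pdx1-deficient arrays. Alpha arrays read 9.11, 9.35, 8.92, 8.96 and 8.81, and beta arrays 9.85, 9.67, 9.76, 9.83 and 10.28. Neither the Pdx1-deficient nor the alpha group overlapped the beta group, and the Pdx1-deficient and alpha arrays overlapped each other. Syt13 fell by 0.85 on the log2 scale in alpha cells (SE 0.15, limma adjusted p = 0.00766, 0.00221 to 0.0267 over the alternatives). In Pdx1-deficient cells its difference was -0.64 (SE 0.15), and the limma adjusted p of 0.0504 lay just above the threshold; it passed in 7 of 24 alternatives (0.0304 to 0.12). Pdx1-deficient and alpha cells differed by 0.21 for this gene (95% interval -0.10 to 0.53).

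None of the calcium-binding synaptotagmins passed. Syt7, a high-affinity sensor used in insulin and glucagon release, averaged 7.88 ± 0.31 in Pdx1-deficient, 7.86 ± 0.17 in alpha and 7.90 ± 0.20 in beta arrays (SD, n = 5 each). Its interval against beta cells ran from -0.33 to 0.28 in Pdx1-deficient and from -0.35 to 0.26 in alpha cells. Syt5 and Syt9, sensors found on endocrine granules, differed by -0.35 and -0.17 in Pdx1-deficient cells and by -0.27 and 0.34 in alpha cells. Syt1 and Syt10 differed by 0.03 and 0.12 in Pdx1-deficient cells and 0.25 and 0.13 in alpha cells, and Doc2b, a soluble sensor with C2 domains, by 0.03 and 0.14. Between Pdx1-deficient and alpha cells Syt9 and Syt11 differed by -0.51 and -0.52 (limma adjusted p = 0.768 and 0.812).

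Syt4, linked to the maturation of mouse beta cells, had the widest beta spread of the synaptotagmins named here, 7.85 to 9.88, against 8.21 to 9.18 in Pdx1-deficient and 8.44 to 9.22 in alpha arrays. Its difference from beta cells was -0.05 in Pdx1-deficient cells, with a 95% interval of -0.71 to 0.60, so a change of up to about that size was not detectable with 5 arrays a group. Syt11, Syt14 and Syt17 differed by -0.02, 0.30 and -0.04 in Pdx1-deficient cells and by 0.51, 0.10 and 0.06 in alpha cells. None of these passed.

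**Figure D3:**
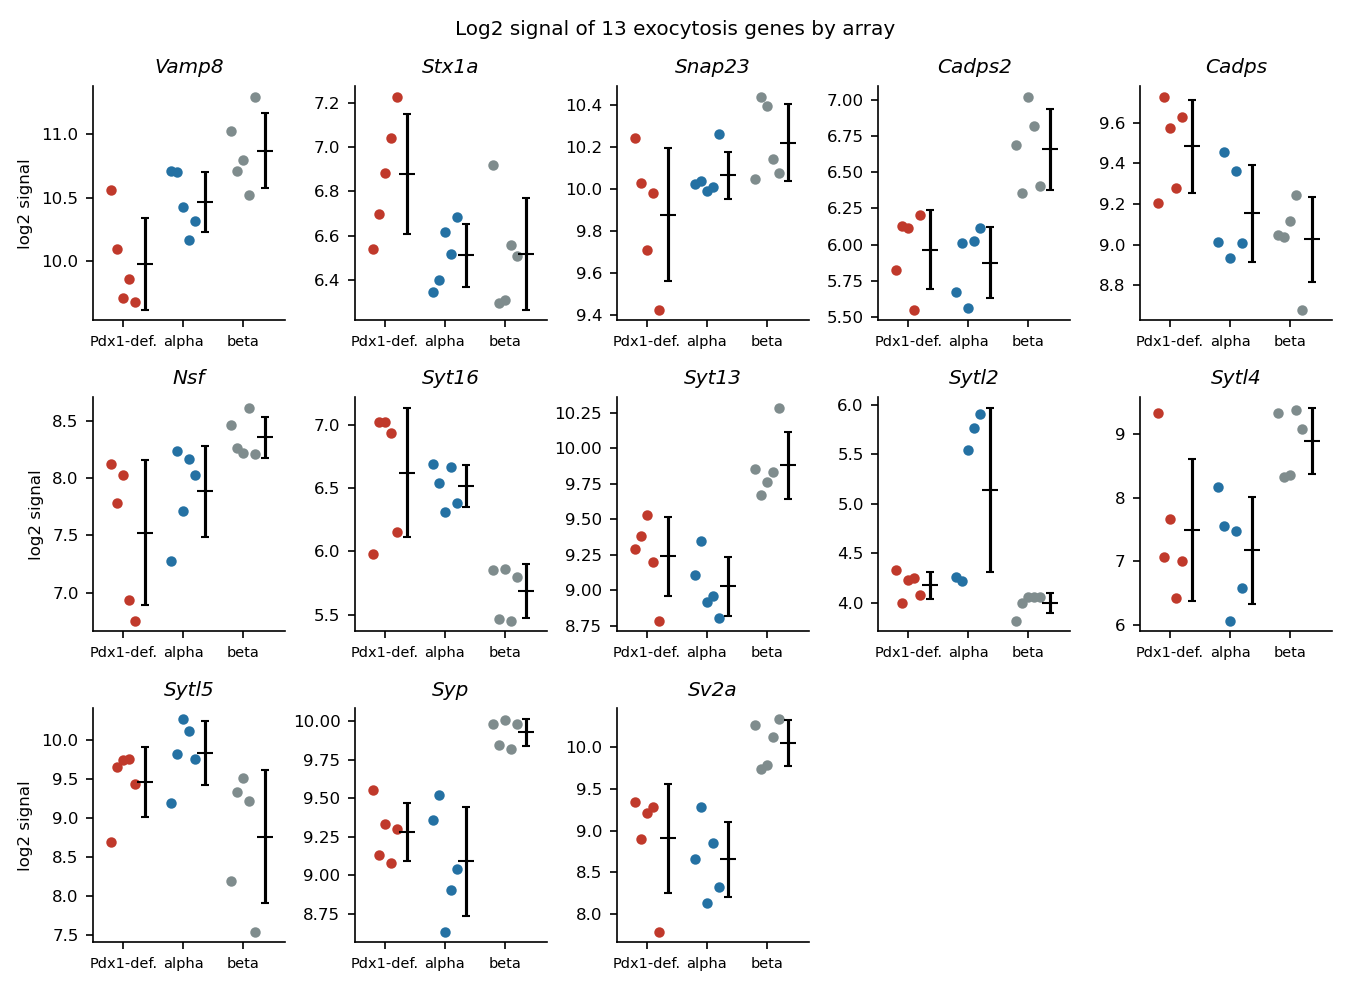
Log2 signal of 13 exocytosis genes in each array, with Pdx1-deficient, alpha and beta groups from left to right in each panel, 1 point an array (replicates 1 to 5 from left to right) and a bar for the mean ± SD of 5 arrays; the vertical axes differ between panels and do not start at 0. Syp, Sv2a, Syt13 and Cadps2 have all Pdx1-deficient and alpha points below all beta points, and in Sytl4 the array labelled Pdx1-deficient replicate 1 sits at 9.34 among the beta arrays.

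Most of the tethering genes encode synaptotagmin-like proteins, which link Rab27 on the granule to the plasma membrane. Of 5 genes with this role 0 passed in Pdx1-deficient cells and 1, Sytl2, rose in alpha cells, with median differences of 0.05 and 0.06 (-0.046 and -0.028 with array medians subtracted, 0.059 and 0.14 with quantile normalization). Sytl2 (Slp2-a), which has been linked to glucagon granules in mouse alpha cells, read 4.34, 4.00, 4.22, 4.25 and 4.08 in Pdx1-deficient replicates 1 to 5. Alpha replicates 1 to 5 read 4.26, 4.22, 5.55, 5.77 and 5.91, and beta replicates 3.82, 4.00, 4.05, 4.06 and 4.06. Alpha replicates 3, 4 and 5 were high, and all 5 Pdx1-deficient arrays, all 5 beta arrays and alpha replicates 1 and 2 lay below the 25th percentile of their own array. The alpha difference was 1.14 (SE 0.28, 2.21-fold, limma adjusted p = 0.0371), and with a dim beta signal the fold may understate the change. It passed in 12 of 23 alternatives (0.00485 to 0.0966) and was lost without any 1 of alpha replicates 3, 4 and 5 or any 1 of the beta replicates. The acinar list mean was 6.23, 5.89 and 11.96 in alpha replicates 3, 4 and 5, and its part in the result was not tested. In Pdx1-deficient cells Sytl2 differed from beta cells by 0.18 (95% interval -0.42 to 0.78) and from alpha cells by -0.96 (limma adjusted p = 0.443).

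Sytl4 (granuphilin), which docks insulin granules, had the widest differences of the list in size, without a call. It read 9.34, 7.07, 7.66, 6.42 and 7.01 in Pdx1-deficient replicates 1 to 5, 8.17, 7.56, 6.07, 7.48 and 6.57 in alpha arrays, and 9.34, 8.33, 8.35, 9.38 and 9.09 in beta arrays. Replicates 2 to 5 of the Pdx1-deficient group and all alpha arrays lay below the lowest beta array. At 9.34, the array labelled Pdx1-deficient replicate 1 read like beta arrays, as it did for Pdx1. The difference from beta cells was -1.40 in Pdx1-deficient cells (SE 0.49, limma adjusted p = 0.137) and -1.73 in alpha cells (SE 0.49, limma adjusted p = 0.0617). Without that array and the array labelled alpha replicate 2 the differences were -1.86 (limma adjusted p = 0.0296, 0.0263 to 0.303 over the alternatives) and -1.82 (limma adjusted p = 0.0159, 0.0159 to 0.149 over the alternatives). Sytl4 passed in 2 of 24 alternatives in Pdx1-deficient cells and in 5 of 24 in alpha cells.

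Sytl5 (Slp5), a further Rab27 effector, differed the other way. It read 8.69, 9.66, 9.75, 9.77 and 9.45 in Pdx1-deficient arrays, 9.20, 9.83, 10.28, 10.12 and 9.77 in alpha arrays, and 8.19, 9.33, 9.52, 9.23 and 7.54 in beta arrays. Beta replicates 1 and 5 were low and the groups overlapped. The differences of 0.70 in Pdx1-deficient and 1.08 in alpha cells did not pass (limma adjusted p = 0.251 and 0.0961). Sytl1 and Rph3al (Noc2), effectors of Rab27 and Rab3, differed by 0.04 and 0.05 in Pdx1-deficient cells and by -0.08 and 0.06 in alpha cells, and the intervals of Rph3al ran from -0.16 to 0.26 in Pdx1-deficient and from -0.15 to 0.27 in alpha cells.

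Of 6 vesicle protein genes, 1 fell in Pdx1-deficient and 2 fell in alpha cells, with median differences of -0.37 and -0.38. Syp (synaptophysin), a membrane protein of small vesicles that is used as an endocrine marker, read 9.55, 9.13, 9.33, 9.08 and 9.30 in Pdx1-deficient replicates 1 to 5. Alpha arrays read 9.36, 9.52, 8.63, 8.90 and 9.04, and beta arrays 9.98, 9.84, 10.01, 9.82 and 9.98. The beta arrays lay close together, and every other array was below them. Syp averaged 9.28 ± 0.19 in Pdx1-deficient and 9.93 ± 0.09 in beta arrays (SD, n = 5 each), a difference of -0.65 (SE 0.14, limma adjusted p = 0.0464) that passed in 9 of 24 alternatives (0.0122 to 0.122). Beside the 7 arrays named above, leaving out Pdx1-deficient replicate 3, alpha replicate 4, alpha replicate 5 or beta replicate 2 ended this call (0.0536, 0.055, 0.0568 and 0.0596). In alpha cells it averaged 9.09 ± 0.35, a difference of -0.84 (SE 0.14, limma adjusted p = 0.00765, 0.000873 to 0.0226 over the alternatives).

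Sv2a, 1 of the 3 SV2 membrane glycoproteins of vesicles and granules, read 9.34, 8.89, 9.21, 9.29 and 7.79 in Pdx1-deficient arrays, 8.66, 9.29, 8.14, 8.85 and 8.33 in alpha arrays, and 10.26, 9.73, 9.79, 10.12 and 10.34 in beta arrays. Both groups lay below all beta arrays, with Pdx1-deficient replicate 5 and alpha replicate 3 the lowest of their groups. Sv2a fell by 1.39 on the log2 scale in alpha cells (SE 0.28, 2.63-fold, limma adjusted p = 0.0152, 0.00365 to 0.0458 over the alternatives). In Pdx1-deficient cells the difference was -1.14 (SE 0.28, limma adjusted p = 0.0586), and it passed in 5 of 24 alternatives (0.0313 to 0.128). The exact permutation p was 0.00794 in both comparisons.

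Sv2b, singled out after its values were seen, lay on the other side of 0 in alpha cells. It read 5.81, 6.98, 7.23, 6.02 and 6.10 in Pdx1-deficient arrays, 7.26, 6.83, 6.80, 7.28 and 7.32 in alpha arrays, and 6.33, 6.21, 6.53, 5.69 and 6.28 in beta arrays. All alpha arrays were above all beta arrays, while in the Pdx1-deficient group replicates 2 and 3 lay above the beta arrays and the other 3 among them. The alpha difference of 0.89 (SE 0.25) had a limma adjusted p of 0.0615, and without the array labelled Pdx1-deficient replicate 1 and the array labelled alpha replicate 2 it was 0.96 and passed. In Pdx1-deficient cells the difference was 0.22 (95% interval -0.32 to 0.76). Sv2c differed by -0.43 in Pdx1-deficient and -0.22 in alpha cells. The synapsins, which hold vesicles on actin, differed by -0.20 (Syn1) and -0.32 (Syn2) in Pdx1-deficient cells and by 0.14 and -0.54 in alpha cells, with no call. Syn2 passed as lower in alpha cells without beta replicate 2.

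**Figure D4:**
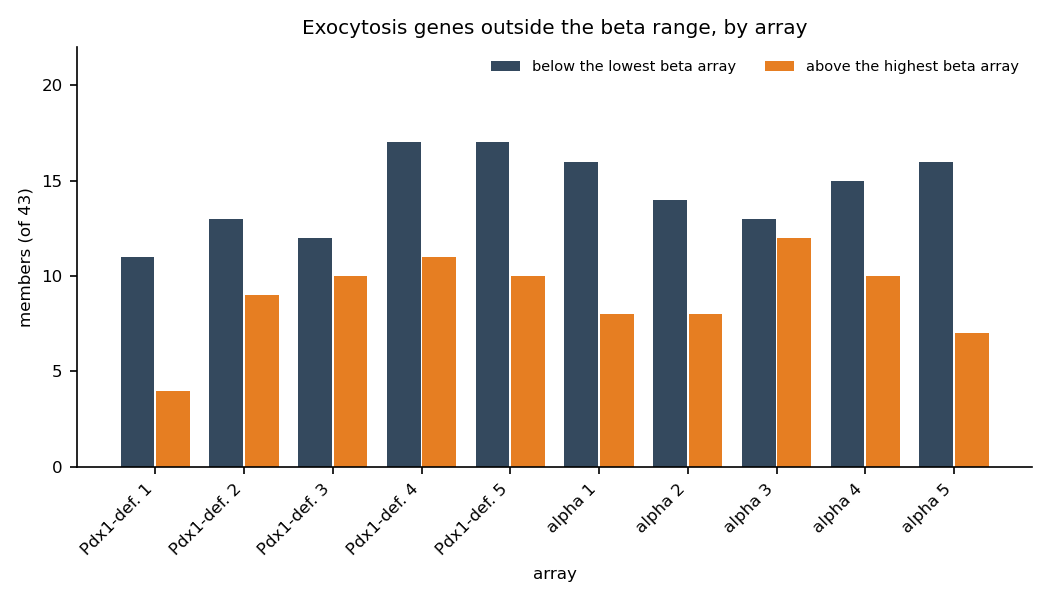
Number of the 43 exocytosis genes that read below the lowest (dark bars) or above the highest (orange bars) of the 5 beta arrays in each Pdx1-deficient and each alpha array. Pdx1-deficient arrays had 11 to 17 members below and 4 to 11 above, and alpha arrays 13 to 16 below and 7 to 12 above.

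In each of the 10 arrays more members went below the beta range than above it. All genes did so too in Pdx1-deficient replicate 3 and in alpha replicates 2 and 4, and went above more often in the other arrays. The array labelled Pdx1-deficient replicate 1 had 11 members below and 4 above the range of the beta arrays, where 15.9% and 19% of all genes were below and above. Replicates 2 and 3 of that group had 13 and 12 members below and 9 and 10 above, where 18.7% and 18.2% of all genes were below and 19.7% and 16.2% above. Replicates 4 and 5 had 17 below in each array and 11 and 10 above, where 21% and 20.1% of all genes were below and 39.5% and 40.2% above. In alpha arrays 13 to 16 members were below and 7 to 12 above, where 19.7% to 22.2% of all genes were below and 15.1% to 34.9% above.

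The same pathway holds other genes, of which 84 of 87 listed were measured. In Pdx1-deficient cells 0 rose and 2 fell against beta cells (2.38%, where 1.09% of all genes passed). In alpha cells 3 rose and 5 fell (9.52%, where 4.04% of all genes passed). Rab3d, a small GTPase of secretory granules, averaged 6.82 ± 0.38 in Pdx1-deficient, 6.73 ± 0.35 in alpha and 8.17 ± 0.54 in beta arrays (SD, n = 5 each), and it fell by 1.35 in Pdx1-deficient cells (limma adjusted p = 0.0316) and by 1.44 in alpha cells (limma adjusted p = 0.00766). Stx18, a SNARE of the endoplasmic reticulum and not of granules, averaged 7.28 ± 0.41, 7.45 ± 0.21 and 8.19 ± 0.31 in the same order, and fell by 0.91 in Pdx1-deficient (limma adjusted p = 0.0367) and 0.74 in alpha cells (limma adjusted p = 0.0415).

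Of the Rab3 genes, whose products recruit Rim proteins to the granule, Rab3c rose in alpha cells (2.01, limma adjusted p = 0.0124), with a difference of 1.66 in Pdx1-deficient cells (limma adjusted p = 0.0517), while Rab3a and Rab3b fell in alpha cells (-0.79 and -0.84, limma adjusted p = 0.0465 and 0.0476). Mctp2, a membrane protein with C2 domains, was dim outside alpha cells. It lay below the array's own 25th percentile in all 5 beta arrays and in 3 of 5 Pdx1-deficient arrays. Mctp2 rose by 2.81 in alpha cells (limma adjusted p = 0.00831, alpha SD 1.29), with 4.68 in its lowest alpha array and 3.89 to 4.36 in beta arrays. Esyt1, an extended synaptotagmin of contacts between the endoplasmic reticulum and the plasma membrane, fell by 0.90 (limma adjusted p = 0.0244), and Ppfia2, an active zone scaffold of the liprin family, rose by 0.83 (limma adjusted p = 0.0383). Between Pdx1-deficient and alpha cells 0 of these 84 genes passed by limma. At an unadjusted p under 0.05 there were 3 higher and 5 lower, where 3.10% of all genes were higher and 2.90% lower.

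Nerve tissue uses the same genes, so its markers were set beside the members. Of 6 measured nerve and Schwann cell markers 0 passed in any comparison, and their mean ran from 5.38 to 5.68 in Pdx1-deficient, 5.40 to 5.84 in alpha and 5.32 to 5.64 in beta arrays. Endothelial markers (0 of 6 passing in any comparison) ranged from 5.09 to 5.36, 5.00 to 5.43 and 5.01 to 5.20 in the same order, and leukocyte markers (0 of 6) from 5.09 to 5.48, 5.32 to 5.60 and 5.13 to 5.69. For delta and PP cells the ranges were 9.51 to 10.20, 9.93 to 10.65 and 9.85 to 10.36, with 1 of 6 markers, Rbp4, higher in alpha than in beta cells. Stromal markers ranged from 5.79 to 6.10, 5.66 to 6.18 and 5.58 to 5.78, with 1 of 6, Rgs5, higher in alpha than in beta cells, and duct markers (0 of 4) from 4.99 to 5.34, 4.93 to 5.56 and 4.97 to 5.23. The part of delta, PP and stromal cells in the results was not tested.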

How the data were processed

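The data are 15 Mouse Gene 1.0 ST arrays, and the deposited values are log2 signals per transcript cluster. Affymetrix Expression Console is the tool that the submitters' processing notes name. How clusters were summarized and background-corrected, the log base and the build were not given in the sources used here. Of 35556 clusters, 21789 carry 1 gene symbol, 1621 several and 12146 none. Each of 19938 genes was read from 1 cluster annotated to it alone, the brightest on average; Unc13a and Sytl5 were the members with more than 1. Gene IDs of 21698 clusters matched the reference gene table (GRCm38.p6, names only), which changed 0 symbols. Array medians ran from 5.88 to 6.05 and correlations between arrays from 0.907 to 0.979.

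Groups were fitted as 3 means with limma 3.58.1 (R 4.3.3) over all 15 arrays, without a block, with p-values adjusted over all genes by the method of Benjamini and Hochberg (threshold 0.05), and with two-sided exact permutation tests for single genes. The fit was tested on simulated data for Pdx1-deficient against beta cells, with 100 changed genes among 19938. It recovered 84% of these at a log2 change of 1 and 96% at 2, with 12 false calls at each size. In the measured arrays only Sytl4 and Sv2a among the members differed by more than 1 in size in that comparison (-1.40 and -1.14). Neither passed (limma adjusted p = 0.137 and 0.0586). The simulated rates therefore do not show that a member without a call changed by less than 2-fold. The number of arrays limits the precision. The members, the lists and the pair of arrays left out together were chosen with earlier results of these data known. Genes given array by array were those past the threshold in any comparison and, in roles with under 2 of these, the 2 next by p in Pdx1-deficient against beta; Sv2b was added after its values were seen. Alternatives were array medians subtracted, quantile normalization, a filter on dim genes (mean below 4.68), trend and robust moderation, fits of 2 groups, a replicate block, mean of a gene's clusters, all clusters tested, and arrays left out.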

Additional observations from a re-analysis of the deposited data

Results flagged for a closer look

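Over 129 sets of 5 arrays (43 genes in 3 groups), 8 held 1 array far from the other 4, by a gap of more than 0.71 of the group's range, and chance gives about 1 in 20 sets. In the Pdx1-deficient group all 3 such values were in replicate 5: Stx4a read 7.64 there and 9.18 to 9.29 in the others, Syt14 read 7.82 against 8.73 to 8.92, and Rims1 read 5.79 against 5.54 to 5.58. In alpha arrays Snap23 read 10.26 in replicate 5, against 9.99 to 10.04, and Stx3 read 7.10 in replicate 1, against 7.58 to 7.78. In beta arrays Stx2 read 6.61 in replicate 5, against 6.13 to 6.25, Doc2b read 5.84 in replicate 4, against 5.39 to 5.50, and Sytl2 read 3.82 in replicate 1, against 4.00 to 4.06. The causes were not tested.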

How the results depend on the processing

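All 9 differences past the threshold kept their direction in every alternative run. In many alternatives only the p could change, so the direction was fixed in advance. These were trend and robust moderation, fits of 2 groups, the block, the filter on dim genes and all clusters tested. Leaving out an array of the group outside the comparison also left the difference as it was. The counts of alternatives passed, given with the genes, include all of these. For Pdx1-deficient against beta cells, where 3 members passed, the count was 6 with array medians subtracted (3.08% of all genes passed), 6 with dim genes left out (1.78%), 7 without Pdx1-deficient replicate 1 and alpha replicate 2 (3.14%), 1 with only the 2 groups compared (0.446%), 0 with quantile normalization (0.145%), 0 with all transcript clusters tested (0.0703%) and 0 to 6 with single arrays left out (0% to 2.75%). In the fit of the report 1.09% of all genes passed. With dim genes left out and with all clusters tested, the number of features adjusted over changed, and the other causes were not tested. For alpha against beta cells the count of 6 ran from 4 to 9, where 1.65% to 7.17% of all genes passed. For Pdx1-deficient against alpha cells the count was 0 to 1 with single arrays left out (0% to 0.727% of all genes). The 1 was Sytl2, lower in Pdx1-deficient cells without alpha replicate 2. Stx1a, not called, turned from -0.01 to above 0 in alpha against beta cells: with single arrays left out it ran from -0.062 to 0.094 (0.094 without beta replicate 1, 0.0040 without beta replicate 4, 0.036 without alpha replicate 1 and 0.022 without alpha replicate 2), and it was 0.022 without Pdx1-deficient replicate 1 and alpha replicate 2.

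With the replicate number as a block 0 members passed in Pdx1-deficient against beta cells (0.0401% of all genes), 7 in alpha against beta (3.17%) and 0 in Pdx1-deficient against alpha cells (0%). In alpha against beta cells Syt16 was then not called (limma adjusted p = 0.0607), and Sytl4 and Sytl5 were (0.0417 and 0.0318). With array medians subtracted 5 members in Pdx1-deficient and 6 in alpha cells changed sign against beta cells, none of them called, and the median of all genes was -0.04 in both comparisons. Whether the replicate numbers pair the samples is not known. Deviations of same-numbered arrays correlated from -0.12 to 0.11 in Pdx1-deficient against beta and 0.005 to 0.22 in alpha against beta cells. In Pdx1-deficient against alpha cells they correlated from -0.17 to 0.22. In no comparison were all 5 above 0.1, which does not exclude a pairing, so the main fit has no block and the block's calls are given here. Sytl2, dim in most arrays, was removed by the filter on dim genes and has no value there.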
